A study of Mus musculus with 16 samples.

Results

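The response of p53-/-; Myc hepatoblasts to sorafenib at 48 hours was measured by RNA-seq in 8 libraries, 4 with sorafenib and 4 with its vehicle DMSO, out of 16 libraries in the series. The libraries were chosen by their labelled treatment and time. All 16 come from a mouse liver progenitor line that lacks the tumor suppressor p53 and overexpresses the oncogene Myc, and both changes are therefore shared by the control cells. Sorafenib was given at 8.5 µM, and the other 8 libraries hold the same treatments at 7 days. The labels describe the cell type as HCC and name the line Hepa p53 -/-,myc, and do not say whether replicates came from separate cultures, so that p-values measure only the spread between these samples, which may be technical. Total counts ranged from 24002696 to 28617629 with DMSO and from 16586254 to 27352812 with sorafenib.

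The labelled lineage was compared with its markers before any result. Among 12 markers of hepatoblasts and liver epithelium, Dlk1, Krt19, Foxa2 and Sox9 were present in every library, while Alb, Ttr and Hnf4a had 0 counts in all 8 libraries and Afp had at most 3 counts in a library. Counts of 0 allow up to 2.59 to 4.54 normalized counts, the worth of 3 counts in these libraries, and cover counting error only. Among 11 markers of other cells, Ptprc, Adgre1, Cdh5 and Lrat had 0 counts, whereas the fibroblast and stellate cell genes Col1a1 and Pdgfrb were high. The summed level of the first group ranged from 35003 to 36371 normalized counts with DMSO and from 12889 to 14807 with sorafenib, carried mostly by Dlk1, and that of the second group from 42248 to 44962 and from 79119 to 85542, carried mostly by Col1a1. Defining hepatocyte genes were thus not detected at this depth, and the cells are called by the labelled name without further claim on their lineage. In bulk RNA, fewer cells of a type and less RNA per cell cannot be told apart. The transcript of Trp53 itself was at 3690.0 ± 322 with DMSO and 1844 ± 80.3 with sorafenib (mean ± SD of normalized counts, n = 4, as throughout), and the gene counts do not show whether the allele is disrupted.

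Sorafenib is a multikinase inhibitor that blocks RAF kinases and several receptor tyrosine kinases, among them the VEGF and PDGF receptors and KIT. RAF kinases pass growth signals from RAS to MEK and ERK, and ERK in turn drives a set of early response genes and of feedback inhibitors. Cells under amino acid, mitochondrial or endoplasmic reticulum stress phosphorylate the translation factor eIF2α, which lowers protein synthesis and favours translation of the transcription factor ATF4, whose targets supply amino acids and charged tRNA. Attachment to the matrix and tension in the actin cytoskeleton act through the coactivator YAP, and low oxygen acts through the factor HIF, which drives glycolysis.

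Of 40840 genes in the deposited table, 20444 had at least 10 counts in total over the 16 libraries and were tested with edgeR's quasi-likelihood test. At a Benjamini-Hochberg adjusted p (FDR) under 0.05, 5505 genes (26.9%) were higher with sorafenib and 5653 (27.7%) were lower, so that 54.6% were called. The libraries of both groups did not overlap for 48.0% of the genes tested. The median log2 fold change over all genes tested was -0.05. A share of members called therefore has to be read against these background shares. With 4 libraries a group, the smallest p an exact two-sided permutation test of a gene can give is 0.0286. The response differed from that at 7 days, by the interaction of treatment and time, for 7515 genes (36.8%), above it at 48 hours for 21.3% and below for 15.5%, and the contrasts at the times share no libraries. At 7 days 28.9% of the genes were higher with sorafenib and 27.9% lower.

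One library limits a part of the genome. Sorafenib replicate 2 had 0.605 times the expected counts for genes that lie after chr14:104714969 (GRCm39), that is the end of chromosome 14, chromosomes 15 to 19 and X, where 14.5% of its counts fell against 21.0 to 21.9% in the other libraries. The region holds 3915 genes among 18048 that were tested and could be placed, and 2394 tested genes had no position. In the region, 772 genes were called higher and 1224 lower with all libraries, and 1174 and 1184 without sorafenib replicate 2. For genes of the region, the value without that library is given in brackets as without replicate 2, except for those given only by counts. Among genes of the lists below that averaged 100 or more normalized counts, leaving it out raised the log2 fold change by a median of 0.13 for the 220 genes in the region and moved it by -0.02 for the 776 others. The cause of the lowered counts was not tested.

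**Figure D1:**
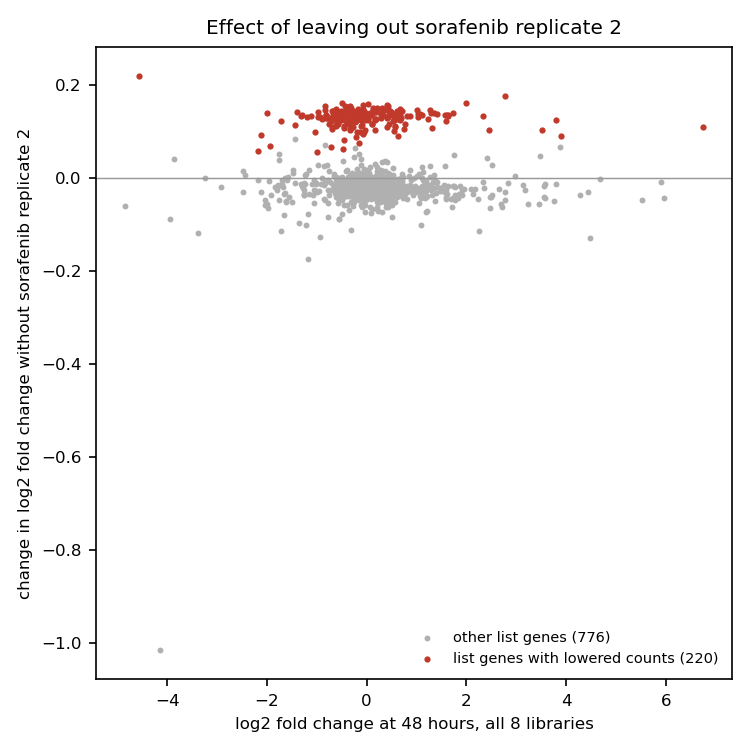
Change in the log2 fold change (sorafenib against DMSO at 48 hours) when sorafenib replicate 2 is left out, plotted against the value with all 8 libraries, for list genes that averaged 100 or more normalized counts. The 220 genes in the lowered region (red) sit between 0.06 and 0.22 and the 776 others (grey) near 0, except for Col6a6, the lowest point, which moved from -4.15 to -5.16.

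Large changes are given for genes that averaged 100 or more normalized counts at 48 hours and whose groups did not overlap. Most were low in 1 of the groups. Car6, a secreted carbonic anhydrase, rose from 2.93, 0.868, 2.04 and 3.46 normalized counts in DMSO replicates 1 to 4 to 1336, 1480.4, 1538 and 1337 in the sorafenib replicates (edgeR FDR 7.43e-21). The groups lay far apart, and no fold is given, as the DMSO mean was under the worth of 3 counts a library. Avil, which encodes the actin-severing protein advillin, was measured well in both groups, at 24.4, 20.8, 22.5 and 24.2 with DMSO and 4588, 4854, 5121 and 4377 with sorafenib, a 205-fold difference (log2 fold change 7.68, SE 0.0743, edgeR FDR 6.27e-23). The DMSO mean was likewise under the worth of 3 counts for Ppef1, which went from 2.26 to 514 normalized counts on average, Serpinb9b from 2.02 to 401, Siglecg from 1.84 to 352, Dhrs9 from 2.30 to 326 and Taf7l from 2.08 to 279. The other large rises were Ppp1r16b (7.15), Ankrd1 and Cdsn (6.38, 6.52 without replicate 2) on the log2 scale. Among the falls, Mgp, an inhibitor of calcification that binds BMP, went from 985, 980.3, 953 and 971 to 5.61, 45.4, 19.0 and 21.6 (log2 fold change -5.45, SE 0.174, edgeR FDR 6.68e-16). Sorafenib replicate 1 was the lowest and replicate 2 the highest of the 4, and all were below every DMSO library. The nonagouti gene a, which encodes a melanocortin receptor antagonist, fell from 767 ± 12.9 with DMSO to 9.69 ± 3.68 with sorafenib (log2 fold change -6.25, SE 0.105, edgeR FDR 5.94e-20). The flavin monooxygenase gene Fmo2 was at 744, 783, 709 and 705 with DMSO, and its sorafenib libraries held at most 3 counts each, as did those of the phosphodiesterase gene Enpp6. The other large falls were Ccdc187 (-5.79), Tm4sf5 (-5.44), Ifitm1 (-5.32), Ptprv (-5.19), Adamts17 (-4.92) and Lamc3.

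Gene families were then described with 52 hand-written lists, of which 51 had members in the table, with 1187 members tested. Every list count is to be read against the shares over all genes tested, 26.9% higher and 27.7% lower, which are repeated for some lists only. List counts at 7 days are to be read against 28.9% higher and 27.9% lower. These shares were not matched to the expression level of list members. Where a list had 5 or fewer members called in 1 direction, members reported here are named with their log2 fold changes in brackets, and those outside the rule for named genes were thereby chosen after their values were seen. Genes for which the mean of a group was at or under the worth of 3 counts a library are given by both means in place of a fold, with no value without replicate 2, and calls on them rest on few counts. The plot of all lists shows the members of each beside the median of all genes. The 3 lists with the highest medians were the stress-response factors with the ATF4 targets, the YAP targets and the cytosolic aminoacyl-tRNA synthetases, and the 3 with the lowest were HIF targets outside glycolysis, cholesterol synthesis and glycolysis.

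**Figure D2:**
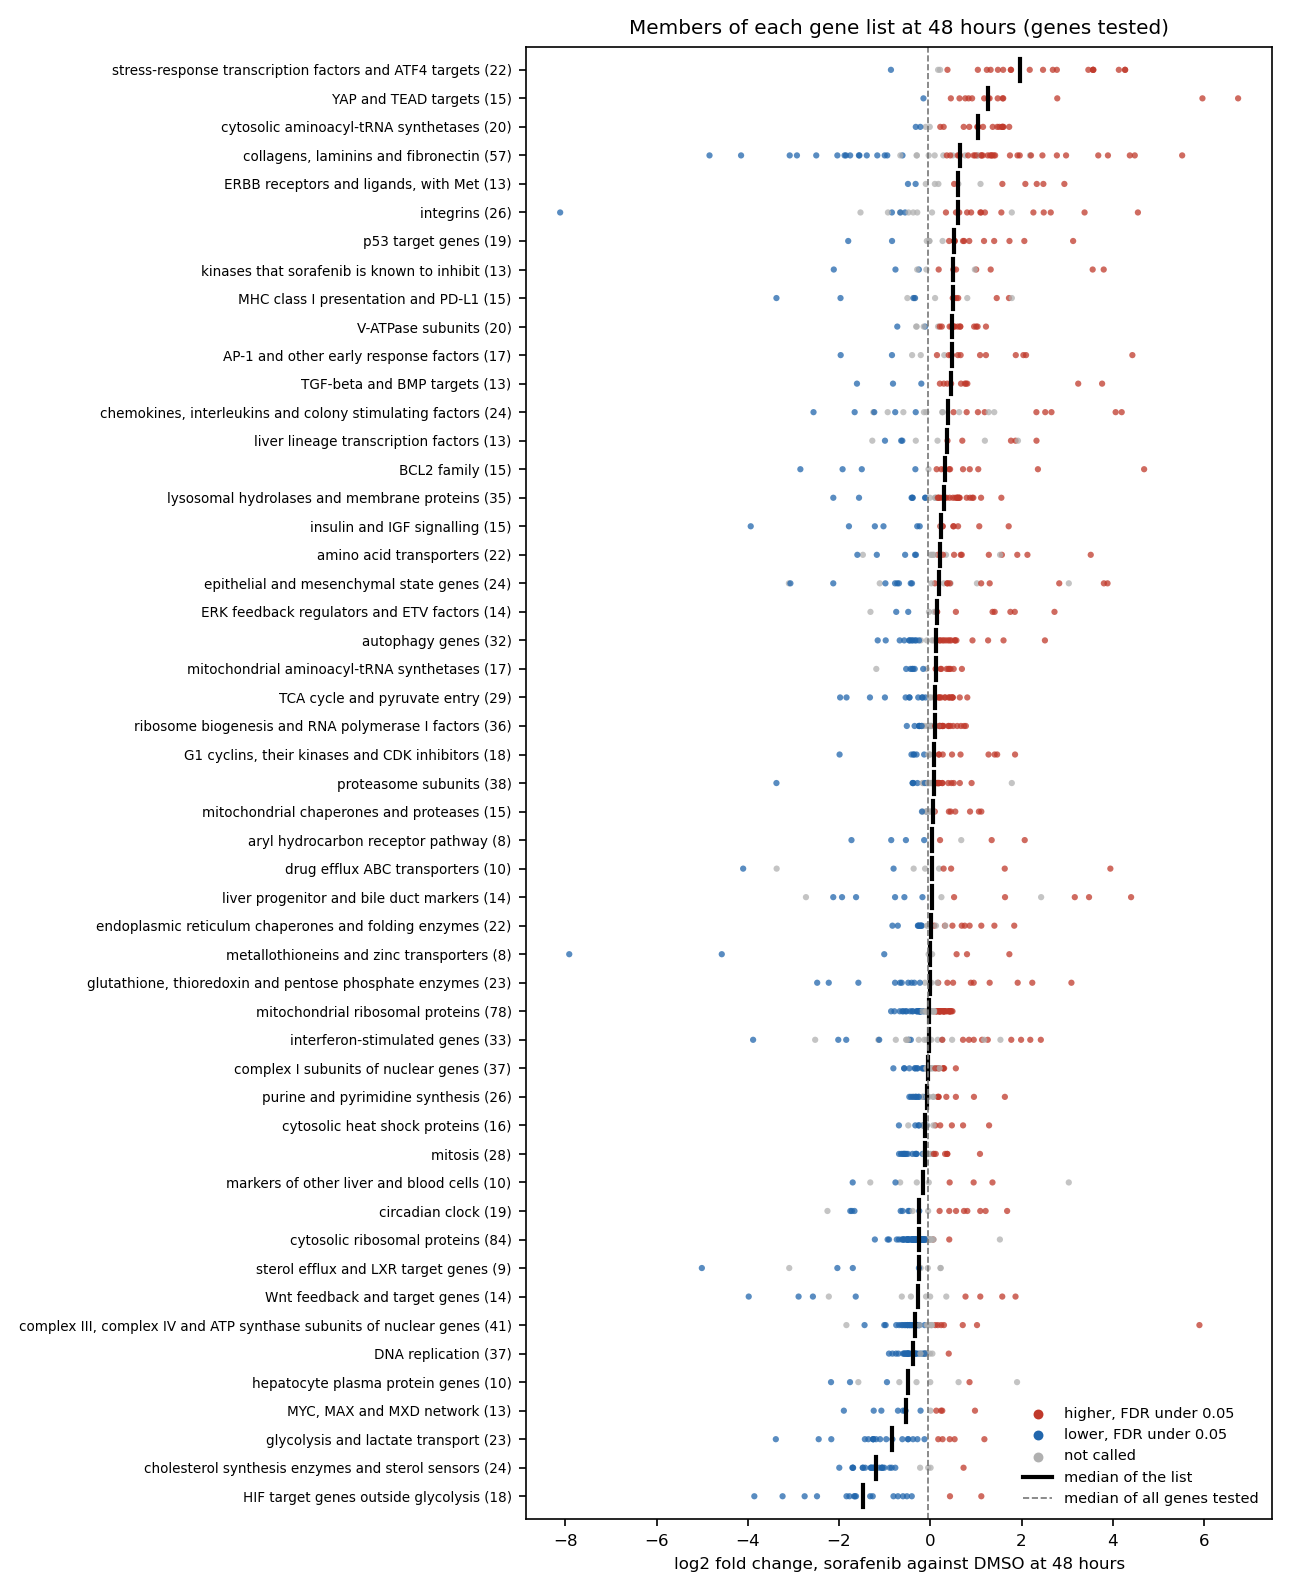
Log2 fold change of sorafenib against DMSO at 48 hours (x axis) for each tested member of 51 gene lists (rows, number tested in brackets), with red points higher, blue lower and grey not called at an edgeR FDR under 0.05. Black bars mark list medians, from -1.47 for HIF targets to 1.98 for ATF4 targets, and the dashed line marks the median of all genes tested, -0.05.

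Of the kinases that sorafenib is known to inhibit, 7 of 13 genes rose and 3 fell, against 26.9% and 27.7% of all genes tested (median log2 fold change 0.51). The falls were those of Pdgfra (-2.11), Pdgfrb (-0.76, -0.64 without replicate 2) and Flt4 (-0.25). Pdgfra, a PDGF receptor, was at 1514, 1509.5, 1561 and 1528 normalized counts with DMSO and 345, 378, 321 and 373 with sorafenib (log2 fold change -2.11, SE 0.0545, edgeR FDR 2.4e-17). All sorafenib libraries were below all DMSO libraries, 4.33-fold lower on average. The collagen receptor kinase Ddr2 went the other way, from 682, 764, 693 and 652 to 9335, 10019, 9975 and 9618, a 13.9-fold rise with no overlap (log2 fold change 3.80, SE 0.0427, edgeR FDR 2.59e-22). Flt1, a VEGF receptor, rose from 118 ± 15.7 with DMSO to 1383 ± 109 with sorafenib (11.8-fold), and DMSO replicate 3 was the highest of its group at 141. The RAF kinase gene Braf rose with a log2 fold change of 1.01. At 7 days the log2 fold change was 0.25 for Braf, different from that at 48 hours (edgeR FDR 1.12e-10), and -2.26 for Pdgfra.

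Targets and feedback inhibitors of ERK did not fall as a group, and 9 of 14 rose while 2, Dusp5 (-0.75, -0.63 without replicate 2) and Spry2 (-0.48, -0.42 without replicate 2), fell (median 0.15). Dusp6 encodes the phosphatase that removes phosphate from ERK in the cytosol. It was at 944, 960.4, 1025 and 968 with DMSO and 3195, 3433, 3419.7 and 3118 with sorafenib (log2 fold change 1.76, SE 0.0492, edgeR FDR 8.71e-17). Every sorafenib library was above every DMSO library, by 3.38-fold on average. The nuclear phosphatase gene Dusp4 rose 6.60-fold, from 347 ± 23.8 with DMSO to 2297 ± 233 with sorafenib, and the transcription factor gene Etv4 3.61-fold, from 375 ± 22.7 with DMSO to 1358 ± 69.8 with sorafenib. Spry4, a feedback inhibitor of receptor kinases, had a log2 fold change of 0.56 (0.67 without replicate 2), and its sorafenib replicate 2 fell within the DMSO range. At 7 days the responses of Dusp6, Dusp4 and Etv4 were smaller, at 0.77, 1.64 and 0.79, with edgeR FDR 4.74e-10, 3.45e-08 and 3.76e-10 for the differences between the times, and Spry4 was at -0.34.

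Among AP-1 and other early response factors, 12 of 17 rose and 2 fell (median 0.47). Those that fell were Fos and Egr1, both classical early targets of ERK signalling. Fos was at 373, 410.3, 441 and 442 with DMSO and 105, 109, 110.4 and 102 with sorafenib (log2 fold change -1.96, SE 0.0833, edgeR FDR 5.68e-14). The sorafenib libraries lay close together and below all DMSO libraries. Egr1 had a log2 fold change of -0.84 (-0.69 without replicate 2). In contrast, the AP-1 subunit gene Jun went from 536, 447, 568 and 492 to 1837, 1957, 1859.7 and 1821 (log2 fold change 1.87, SE 0.0628, edgeR FDR 1.36e-15), and Fosl1 rose with a log2 fold change of 2.04 (2.17 without replicate 2). Klf4, a zinc finger factor of growth arrest and epithelial differentiation, had the largest rise of the list, from 66.5, 76.3, 57.2 and 66.5 to 1458, 1542, 1480.0 and 1309, 21.6-fold with no overlap (log2 fold change 4.43, SE 0.0843, edgeR FDR 3.2e-19). Klf6 rose 4.29-fold.

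Growth factor genes were split. Of ERBB receptors and ligands with Met, 6 of 13 rose and 2, Erbb2 (-0.49) and Egfr (-0.32), fell. The ligand gene Nrg1 was at 119, 138, 133 and 143 with DMSO and 716, 853, 724 and 699.6 with sorafenib (log2 fold change 2.48, SE 0.0796, edgeR FDR 6.99e-16), above the DMSO range in each library, and its log2 fold change at 7 days was 0.014 (edgeR FDR 3.42e-13 for the difference). The EGF receptor ligand gene Hbegf rose with a log2 fold change of 2.33 (2.47 without replicate 2) and the receptor gene Erbb4 with 1.58. In the insulin and IGF list, 8 of 15 rose and 6 fell. Igf2, a growth factor of the fetal liver, was at 39009, 39609, 40125 and 43895 with DMSO and 11768, 12203, 11181 and 12129 with sorafenib, 3.44-fold lower with no overlap (log2 fold change -1.78, SE 0.0435, edgeR FDR 1.04e-17). Igfbp5, which encodes an IGF binding protein, fell 15.3-fold from 1538 ± 64.3 with DMSO to 104 ± 29.8 with sorafenib, with sorafenib replicate 3 the lowest at 59.0, and Igfbp7 rose 3.29-fold. Irs2, the adaptor of the insulin receptor, rose with a log2 fold change of 0.51.

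YAP and TEAD targets rose almost throughout. Of 15 members tested, 14 rose and 1, Arhgef17 (-0.15), fell. The median log2 fold change was 1.27 (1.42 without replicate 2), and the groups did not overlap for any of the 15 genes, as for 48.0% of all genes tested. Ankrd1, an ankyrin repeat protein and a standard readout of YAP, lies at chr19:36089352-36097506 (GRCm39). It was at 104, 90.2, 119 and 67.4 normalized counts with DMSO and 10754, 7794, 11592 and 10393 with sorafenib (log2 fold change 6.75, SE 0.151, edgeR FDR 2.63e-18, and 6.86 without replicate 2 with an edgeR FDR of 4.17e-51). Sorafenib replicate 2 was the lowest of its group, and all 4 were above the DMSO range, 107-fold on average. Ccn2, a secreted matrix protein also known as CTGF, lies at chr10:24471333-24474900, outside the lowered region, and went from 308, 273, 322 and 291 to 17719, 20411, 19424 and 16991 (log2 fold change 5.97, SE 0.0776, edgeR FDR 1.97e-21). Its rise was 62.5-fold, and that of its relative Ccn1 6.89-fold, from 1202 ± 65.2 with DMSO to 8276 ± 460.1 with sorafenib. The responses of 12 members of the list were above those at 7 days and of 2 below, against 21.3% and 15.5% of all genes. The log2 fold change at 7 days was 3.44 for Ankrd1, 2.60 for Ccn2 and 1.16 for Ccn1.

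The list of epithelial and mesenchymal state genes was split, with 9 of 24 higher and 8 lower (median 0.20). Its log2 fold changes ranged from -3.10 to 3.89. The members named here are a part of the list, and others of both classes, such as Cdh2, Zeb1, Twist1 and Cldn3, are not given. The named members therefore do not describe a shift of either class. Acta2, which encodes smooth muscle actin, was at 4577, 4489, 4796 and 4868 with DMSO and 71432, 47772, 73383 and 69338 with sorafenib (log2 fold change 3.81, SE 0.0982, edgeR FDR 2.4e-17, and 3.93 without replicate 2 with an edgeR FDR of 1.37e-54). All sorafenib libraries were above the DMSO range, and replicate 2 was again the lowest. Tagln, which encodes the actin-binding protein transgelin, rose 14.8-fold, from 170.1, 133, 146 and 136 to 1834, 1884, 2607 and 2257 (log2 fold change 3.89, SE 0.140, edgeR FDR 4.05e-15), and was at 0.19 on the log2 scale at 7 days (edgeR FDR 2.81e-12 for the difference). Vim, which encodes vimentin, and the transcription factor genes Zeb2 and Snai2 rose with log2 fold changes of 1.12, 2.83 and 1.30 (1.41 without replicate 2). The duct keratin gene Krt19 fell from 2626 ± 110.1 with DMSO to 1537 ± 73.4 with sorafenib (-0.77). Epcam was at 23.3 to 32.1 with DMSO and 1.51 to 11.4 with sorafenib, and Krt8 at 107 to 124 and 36.3 to 102. Cdh1, which encodes E-cadherin, was at 58.2 ± 3.16 with DMSO and 72.6 ± 9.84 with sorafenib, and its difference did not pass the test (edgeR FDR 0.0508). In a fit of the 48-hour libraries alone, 5 members of this list were called higher in place of 9.

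**Figure D3:**
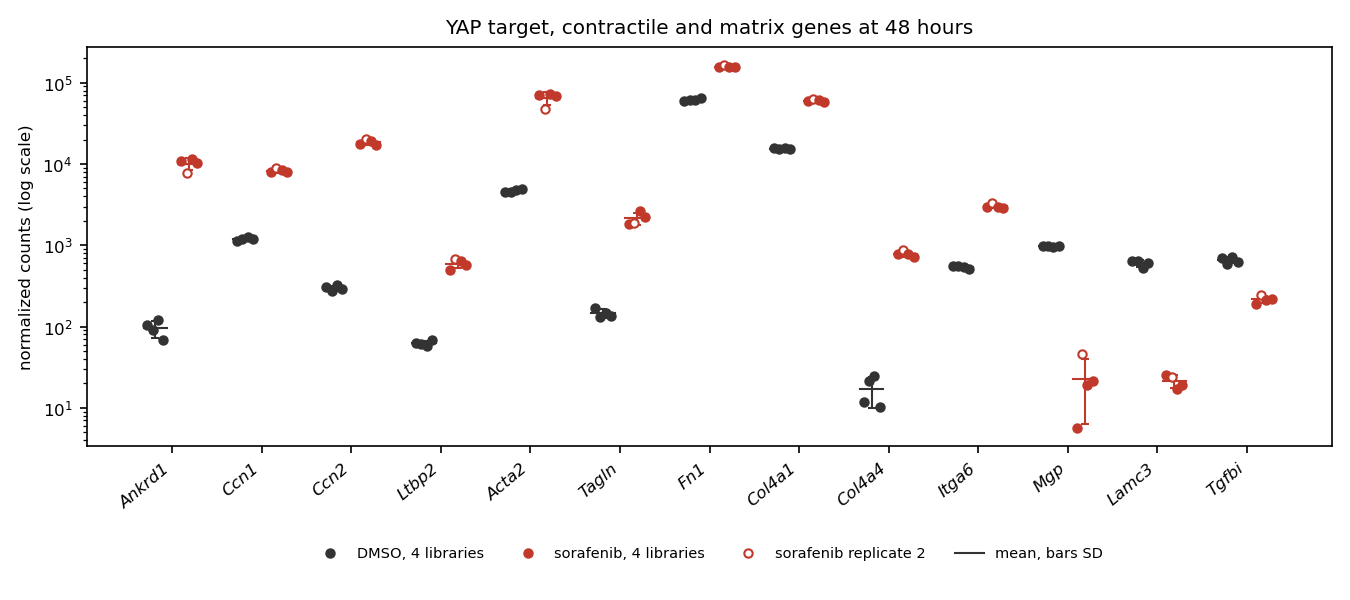
Normalized counts (log axis) of 13 YAP target, contractile and matrix genes in each of the 4 DMSO (black) and 4 sorafenib (red) libraries at 48 hours, with bars for mean and SD and an open symbol for sorafenib replicate 2. The groups did not overlap for any of these genes, as for 48.0% of all genes tested. The changes ranged from 45.9-fold and 107-fold rises for Col4a4 and Ankrd1 to the fall of Mgp from 972 to 22.9 normalized counts.

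Matrix genes changed in both directions. Of collagens, laminins and fibronectin, 30 of 57 rose and 16 fell (median 0.65), and 9 fell when 10 counts in every library were required. Fn1, which encodes fibronectin, was at 58973, 61804, 62019 and 65317 with DMSO and 154694, 164484, 155277 and 155818 with sorafenib (log2 fold change 1.34, SE 0.0304, edgeR FDR 3.2e-18). The groups were far apart, at 2.54-fold, while at 7 days the log2 fold change was 0.14. The basement membrane collagen gene Col4a1 rose 3.89-fold, from 15513 ± 120.4 with DMSO to 60417 ± 2301 with sorafenib. Col4a4, of the collagen IV type found in kidney and lung basement membranes, went from 11.7, 21.7, 24.5 and 10.4 to 783, 869, 776 and 714, 45.9-fold (log2 fold change 5.52, SE 0.126, edgeR FDR 3.79e-18). Its neighbour Col4a3 rose 22.4-fold, from 9.52 ± 1.58 with DMSO to 217 ± 42.1 with sorafenib, and as the 2 genes overlap at their starts, their counts are uncertain to that extent. Of the falls, Lamc3, a laminin chain gene, went from 643, 632, 525 and 607 to 25.3, 24.2, 17.1 and 19.3 (log2 fold change -4.84, SE 0.124, edgeR FDR 2.18e-17). Col6a6 was at 292, 274, 279.7 and 307 with DMSO and 4.21, 48.4, 8.57 and 10.2 with sorafenib, where replicate 2 was the highest, and its log2 fold change of -4.15 was -5.16 without that library. The collagen VI genes Col6a1 and Col6a2 also fell, by log2 fold changes of -1.76 and -2.04, and like Col6a6 were chosen after their values were seen.

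Integrins, the receptors for these proteins, rose for 14 of 26 genes and fell for 4, Itgal (from 33.9 to 0 normalized counts), Itga2b (-0.84), Itgb3 (-0.66) and Itga10 (-0.55) (median 0.60), with 9 higher when 10 counts in every library were required. Itga6, a laminin receptor subunit, was at 559, 554, 536 and 509 with DMSO and 2977, 3296, 2945 and 2892 with sorafenib, 5.61-fold higher with no overlap (log2 fold change 2.49, SE 0.0510, edgeR FDR 8.96e-19). Itga7 rose 4.79-fold, Itgav 2.30-fold and the common subunit gene Itgb1 1.86-fold.

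TGF-β and BMP targets rose for 10 of 13 genes and fell for 3, Tgfbi (-1.61), Bambi (-0.82, -0.68 without replicate 2) and Id1 (-0.20) (median 0.46). Ltbp2, which encodes a TGF-β binding protein of the matrix, was at 63.5, 60.7, 58.2 and 68.3 with DMSO and 498, 676, 632 and 576 with sorafenib (log2 fold change 3.24, SE 0.0948, edgeR FDR 1.66e-16). The groups did not overlap, and the gene fell at 7 days (-0.94, edgeR FDR 2.16e-15 for the difference). The inhibitory SMAD gene Smad7 had a log2 fold change of 0.67 (0.82 without replicate 2), with replicate 2 inside the DMSO range, while Tgfbi, named for its induction by TGF-β, fell from 658 ± 61.1 with DMSO to 216 ± 22.4 with sorafenib (-1.61). Of the Wnt list, 4 of 14 rose, namely Tbx3 (from 1.15 to 4.62 normalized counts), Notum (from 2.49 to 7.75 normalized counts), Nkd1 (1.10) and Apcdd1 (0.77, 0.89 without replicate 2), and 4 fell, namely Lgr5 (from 30.6 to 1.85 normalized counts), Sp5 (from 3.05 to 0.284 normalized counts), Axin2 (-2.57) and Lef1 (-1.63). These shares, 28.6% higher and 28.6% lower, were near the 26.9% and 27.7% of all genes tested, so the list did not stand out from them. When 10 counts in every library were required, 2 rose and 2 fell. Axin2, a feedback inhibitor and common readout of β-catenin, fell from 100.3 ± 5.69 with DMSO to 17.8 ± 10.1 with sorafenib (-2.57) and the factor gene Lef1 from 296 ± 11.1 with DMSO to 95.6 ± 10.7 with sorafenib (-1.63). Nkd1 and Apcdd1, which rose, also inhibit Wnt signalling.

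The largest list median was that of stress-response factors and ATF4 targets, at 1.98. Of its 22 tested members, 19 rose, 1 fell and 2 were not called, and 20 rose and 1 fell without replicate 2. The member that fell was Ddit4 (-0.86), an mTORC1 inhibitor gene that also responds to HIF. Atf4 was at 5166, 4772, 5078 and 5053 with DMSO and 16822, 11184, 16371 and 16337 with sorafenib (log2 fold change 1.60, SE 0.0846, edgeR FDR 2e-12, and 1.72 without replicate 2 with an edgeR FDR of 5.78e-44). The gene lies in the lowered region and sorafenib replicate 2 was the lowest of its group, still above the DMSO range. Ddit3, which encodes the factor CHOP, went from 292, 254, 283 and 276 to 3034, 3399, 3459.7 and 3192, 11.9-fold (log2 fold change 3.57, SE 0.0508, edgeR FDR 7e-21). Trib3, a pseudokinase that CHOP and ATF4 induce, lies at chr2:152179337-152191958 and was at 282, 285, 314 and 294 with DMSO and 5395, 6129, 5585 and 5556 with sorafenib (log2 fold change 4.27, SE 0.0533, edgeR FDR 1.06e-21). All sorafenib libraries were above the DMSO range, 19.3-fold on average. The glutathione-degrading enzyme gene Chac1 rose 11.9-fold and the asparagine synthetase gene Asns 3.40-fold, from 2895 ± 26.3 with DMSO to 9836 ± 329 with sorafenib.

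The motif TGATGNAA, a form of the composite element that C/EBP and ATF factors bind, was searched on both strands in RefSeq promoters (GRCm38.p6, 250 bases before to 50 after a start). Of the 22 genes of this list, 21 were in the promoter table, and 8 of their 26 promoters (30.8%) held it, as did 5 of 13 promoters (38.5%) of the cytosolic synthetases, for which 13 of 20 genes were in the table. Over all 32851 promoters, 1304 (3.97%) held it. On the gene strand alone the share was 11.5% for the first list and 2.12% for all promoters. The promoters of 3 genes that rose are shown because they carry the motif, in capitals. In Trib3 (chr2:152344011-152344310, minus strand) and Chac1 (chr2:119350992-119351291, plus strand) it lies on the opposite strand, and in Asns (chr6:7693160-7693459, minus strand) on the gene strand.
Trib3: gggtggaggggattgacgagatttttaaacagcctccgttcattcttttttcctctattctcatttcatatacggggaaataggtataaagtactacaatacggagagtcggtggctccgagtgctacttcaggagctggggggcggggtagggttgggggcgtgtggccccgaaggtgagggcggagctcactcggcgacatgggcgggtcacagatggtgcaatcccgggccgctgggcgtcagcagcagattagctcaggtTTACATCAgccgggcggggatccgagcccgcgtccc
Chac1: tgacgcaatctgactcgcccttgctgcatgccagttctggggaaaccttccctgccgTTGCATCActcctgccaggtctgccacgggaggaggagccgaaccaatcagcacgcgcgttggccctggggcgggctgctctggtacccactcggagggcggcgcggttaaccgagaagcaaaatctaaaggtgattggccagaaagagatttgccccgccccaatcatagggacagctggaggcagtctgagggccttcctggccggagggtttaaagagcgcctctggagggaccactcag
Asns: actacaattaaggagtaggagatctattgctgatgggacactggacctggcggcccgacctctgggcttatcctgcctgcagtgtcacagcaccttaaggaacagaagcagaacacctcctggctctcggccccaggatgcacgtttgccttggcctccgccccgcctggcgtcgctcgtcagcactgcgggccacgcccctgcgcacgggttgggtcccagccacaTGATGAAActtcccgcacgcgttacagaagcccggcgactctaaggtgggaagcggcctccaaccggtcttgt
A match is a description of these letters and shows no binding.

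Genes that charge tRNA were also mostly higher. Of cytosolic aminoacyl-tRNA synthetases, 16 of 20 rose and 2, Qars (-0.32) and Vars (-0.22, -0.091 without replicate 2), fell (median 1.05), and 16 and 3 without sorafenib replicate 2. Without DMSO replicate 1 or DMSO replicate 2, 1 fell. Aars, for alanine, was at 5466, 4851, 5182 and 4952 with DMSO and 16456, 17629, 16973 and 16797 with sorafenib, 3.32-fold higher with no overlap (log2 fold change 1.73, SE 0.0346, edgeR FDR 6.24e-19). Gars, for glycine, rose 3.01-fold and Lars, for leucine, had a log2 fold change of 1.61 (1.74 without replicate 2). Qars, for glutamine, fell from 4114 ± 111 with DMSO to 3302 ± 119 with sorafenib (-0.32). The responses of 15 of the synthetases were above those at 7 days, against 21.3% of all genes tested. The list median at 7 days was 0.55. The mitochondrial synthetases were split, with 9 of 17 higher and 6 lower (median 0.12), such as Tars2 (0.69) and Pars2 (-0.53). Lars2 was not called (edgeR FDR 0.0997) and spread from 10308 to 48889 in DMSO libraries. The locus AY036118, which is no member, ranked those libraries in the same order, from 62148 to 324081 normalized counts.

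Transporters that bring in amino acids rose for 10 of 22 genes and fell for 5, Slc38a3 (-1.60), Slc43a1 (-1.17), Slc43a2 (-0.55), Slc1a3 (-0.33, -0.18 without replicate 2) and Slc38a4 (-0.31, -0.18 without replicate 2), and 3 fell in a fit of the 48-hour libraries alone. Slc7a5, the light chain of the leucine transporter LAT1, was at 4828, 4789.7, 4787 and 4875 with DMSO and 17953, 19498, 17593 and 17297 with sorafenib (log2 fold change 1.91, SE 0.0348, edgeR FDR 1.84e-19). All sorafenib libraries were above the DMSO range, 3.75-fold on average. Slc7a3, for cationic amino acids, rose 11.5-fold from 128 ± 10.3 with DMSO to 1465 ± 231 with sorafenib (3.52, 3.62 without replicate 2), the glycine transporter gene Slc6a9 4.38-fold, and Slc38a2, for glutamine, with a log2 fold change of 0.52 (0.64 without replicate 2).

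**Figure D4:**
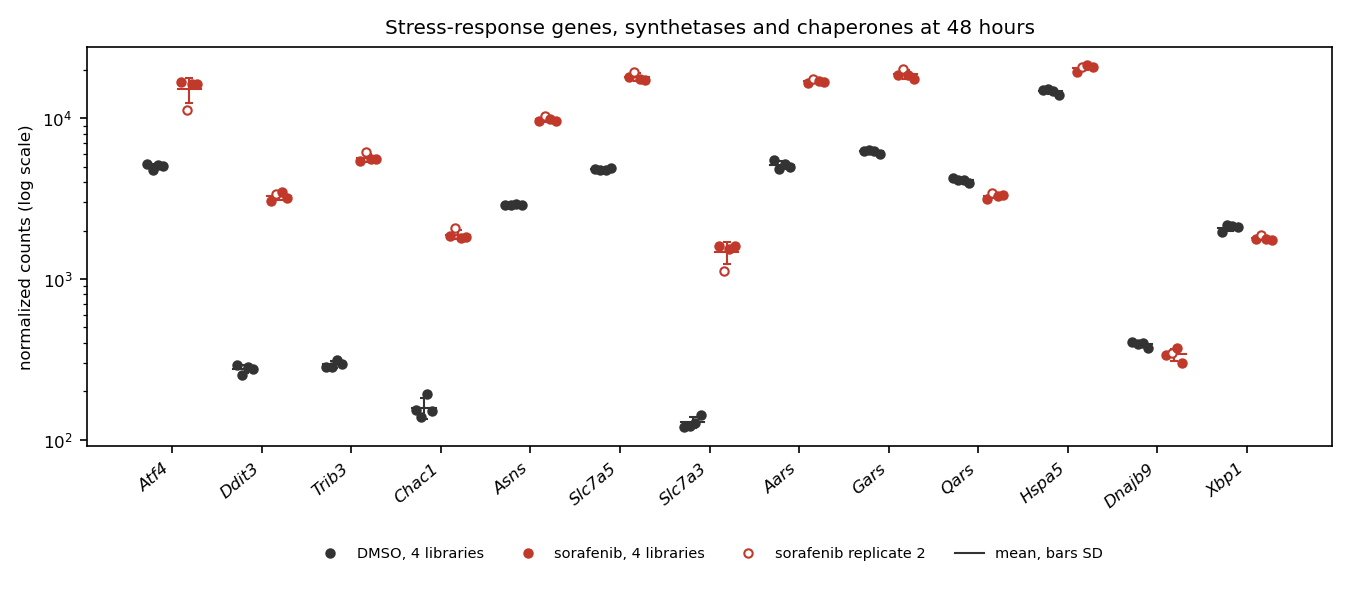
Normalized counts (log axis) of 13 genes of the ATF4 response, amino acid transport, tRNA charging and the endoplasmic reticulum in each DMSO (black) and sorafenib (red) library at 48 hours, with mean and SD bars and sorafenib replicate 2 as an open symbol. Trib3, Ddit3, Chac1 and Slc7a3 stand more than 10-fold apart between the groups, while Hspa5 rose 1.40-fold and Dnajb9, Xbp1 and Qars were lower with sorafenib.

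Chaperones of the endoplasmic reticulum did not move as a group, with 9 of 22 higher and 9 lower (median 0.017, with either sign among the settings tried, and 11 and 10 without replicate 2). Hspa5, which encodes the chaperone BiP, was at 14882, 15207, 14843 and 13885 with DMSO and 19475, 20825, 21309 and 20764 with sorafenib (log2 fold change 0.49, SE 0.0329, edgeR FDR 9.69e-11), above the DMSO range in each library. Herpud1 and Sel1l, of the degradation of misfolded proteins, rose 3.58-fold and 2.65-fold. Xbp1, the factor that the sensor IRE1 activates by splicing, fell from 1957, 2161, 2132 and 2094 to 1767, 1864, 1771 and 1755 (log2 fold change -0.22, SE 0.0385, edgeR FDR 5.14e-05) and its target Dnajb9 from 393 ± 13.9 with DMSO to 339 ± 29.7 with sorafenib (-0.21). Both rose at 7 days (0.26 and 0.28, edgeR FDR 5.8e-07 and 0.000247 for the differences). Gene counts do not show the splicing of Xbp1.

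Of cytosolic heat shock proteins, 5 of 16 rose and 7 fell. Those that rose were Hspb8 (1.29), Dnajb4 (0.72), Hsp90aa1 (0.47), Hspa4 (0.22) and Hsph1 (0.11), whereas the inducible Hspa1b fell (-0.69, -0.58 without replicate 2). Of mitochondrial chaperones and proteases, 7 of 15 rose and 2, Phb (-0.18) and Yme1l1 (-0.079), fell, and 1 fell without DMSO replicate 2. Hspa9, the mitochondrial HSP70, was at 20082, 19719, 19916 and 19057 with DMSO and 43568, 28953, 46778 and 45581 with sorafenib (log2 fold change 1.07, SE 0.0929, edgeR FDR 4.73e-09, and 1.20 without replicate 2 with an edgeR FDR of 8.98e-38). Replicate 2 was the lowest of the sorafenib libraries, and all were above the DMSO range. The matrix protease gene Lonp1 rose with a log2 fold change of 1.12 (1.25 without replicate 2) and the chaperonin gene Hspd1 with 0.55.

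Most glycolysis genes and HIF targets fell at 48 hours, whereas both lists were divided at 7 days. Of the glycolysis and lactate transport list, 18 of 23 genes fell and 5 rose (median -0.83), against 10 lower and 10 higher at 7 days (median -0.073). The response differed between the times for 20 of them, and was below that at 7 days for 15, against 36.8% and 15.5% of all genes tested. The members that rose at 48 hours were Eno2 (1.19), Pfkfb2 (0.53), Hk1 (0.43), Pfkfb3 (0.27) and Hk2 (0.18). Ldha, the lactate dehydrogenase subunit of glycolytic tissues, lies at chr7:46490899-46505061 and was at 40174, 41633, 41551 and 41262 with DMSO and 18792, 19779, 19303 and 18965 with sorafenib (log2 fold change -1.10, SE 0.0297, edgeR FDR 4.95e-17). The groups did not overlap, and the sorafenib mean was 2.14-fold lower. The glucose transporter gene Slc2a1 went from 5753, 6166, 6177 and 6331 to 2606, 2752, 2506 and 2402 (log2 fold change -1.25, SE 0.0419, edgeR FDR 1.31e-15) and rose at 7 days (0.45, edgeR FDR 2.04e-14 for the difference). Pfkl, the liver phosphofructokinase, fell 5.45-fold from 10303 ± 527 with DMSO to 1890.5 ± 33.4 with sorafenib, and was at -0.083 at 7 days. The lactate exporter gene Slc16a3 fell 4.50-fold. Aldoc, an aldolase, fell 10.4-fold at 48 hours and had a log2 fold change of -5.69 at 7 days. The hexokinase gene Hk2 had log2 fold changes of 0.18 and 0.24 at the times, and its call at 48 hours was lost with scaling to total counts (0.11, edgeR FDR 0.0539).

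Of HIF targets outside glycolysis, 16 of 18 fell and 2 rose (median -1.47), and 7 and 8 at 7 days (median 0.083). The response at 48 hours was below that at 7 days for 16 members, against 15.5% of all genes tested. Bnip3, a mitophagy receptor at chr7:138490690-138511253, was at 2516, 2719.7, 2814 and 2872 with DMSO and 274, 292, 318 and 270.3 with sorafenib, 9.43-fold lower (log2 fold change -3.24, SE 0.112, edgeR FDR 2.33e-15). No sorafenib library came near the DMSO range, and the log2 fold change at 7 days was 0.60 (edgeR FDR 8.75e-13 for the difference). Pdk1, the kinase that shuts off pyruvate dehydrogenase, went from 5823, 6012, 6375 and 6235 to 1643, 1789, 1707 and 1712 (log2 fold change -1.84, SE 0.0720, edgeR FDR 1.64e-14) and rose at 7 days (0.86, edgeR FDR 1.14e-13 for the difference). Egln3, an oxygen sensor of the HIF pathway, fell 5.59-fold and Ankrd37 14.5-fold, from 397 ± 20.9 with DMSO to 27.3 ± 7.17 with sorafenib. The members that rose were Vegfa (0.43, 0.56 without replicate 2), whose sorafenib replicate 2 lay within the DMSO range, and Ero1a (1.12), an oxidase of the endoplasmic reticulum that the endoplasmic reticulum list also holds.

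**Figure D5:**
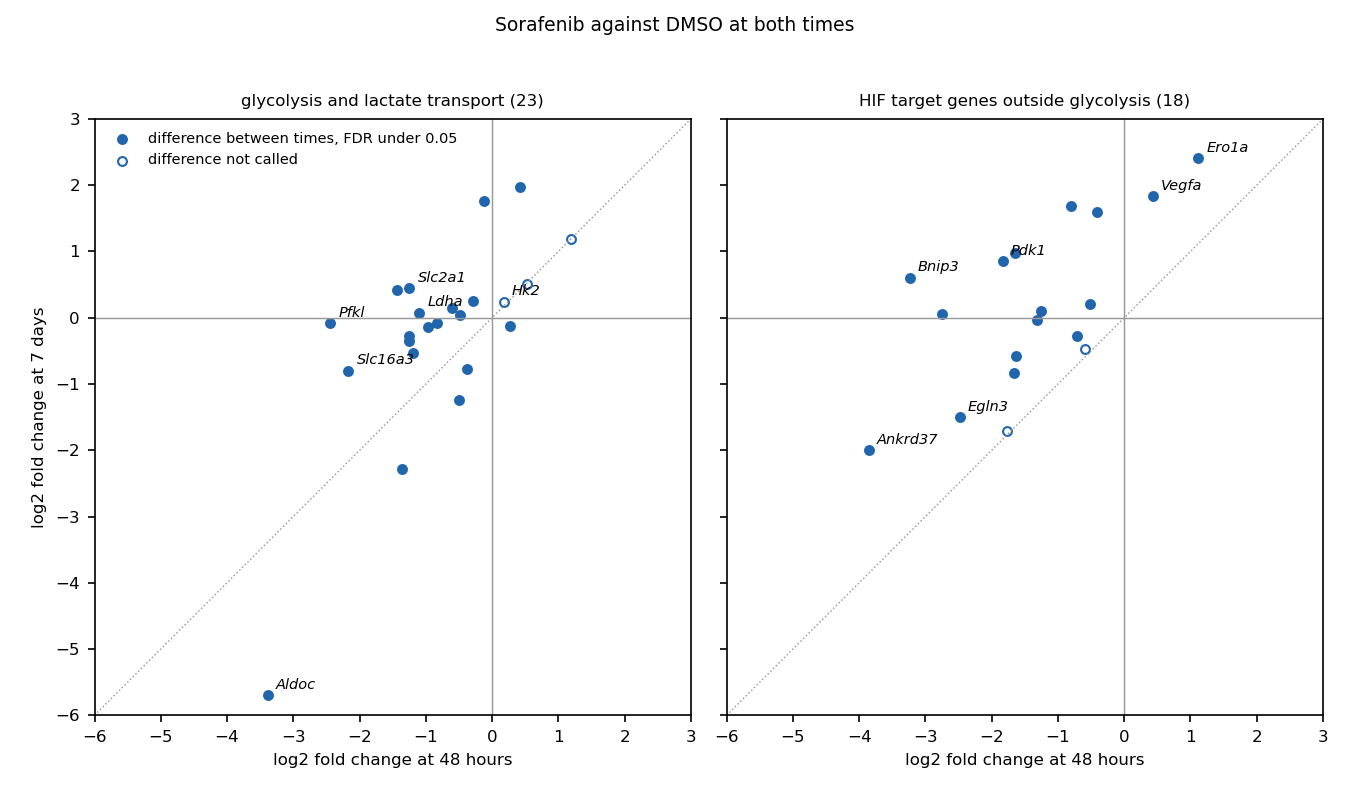
Log2 fold change of sorafenib against DMSO at 48 hours (x axis) and 7 days (y axis) for the 23 glycolysis and 18 HIF target genes tested, with filled points where the difference between the times passed an edgeR FDR of 0.05 and a dotted line of equal response. Most points lie left of 0 and above the dotted line, with Bnip3 at -3.24 and 0.60 and Pdk1 at -1.84 and 0.86.

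Of the TCA cycle and pyruvate entry list, 15 of 29 rose and 11 fell (median 0.11, 17 and 11 without replicate 2). The pyruvate dehydrogenase kinase genes Pdk2 (-1.98) and Pdk3 (-1.32, -1.19 without replicate 2) fell as Pdk1 did, and the citrate synthase gene Cs rose from 8573 ± 136 with DMSO to 11675 ± 451 with sorafenib (0.45). Nuclear genes of complex I rose for 7 of 37 (18.9%) and fell for 11 (29.7%), against 26.9% and 27.7% of all genes tested. Their median was -0.046, and 11 rose and 15 fell without replicate 2. The fall of Ndufv3 was -0.81 (-0.67 without replicate 2) on the log2 scale. Of complexes III and IV and ATP synthase, 25 of 41 fell and 7 rose (median -0.33). Uqcrh fell 2.71-fold, from 3676 ± 203 with DMSO to 1354 ± 74.8 with sorafenib, while Uqcrq, of the same complex, rose 2.03-fold. Cox6a2, the heart and muscle form of a complex IV subunit, had the largest rise, from 4.89, 6.07, 6.13 and 1.73 to 283, 290.3, 274 and 291 (log2 fold change 5.90, SE 0.187, edgeR FDR 5.55e-16). The protein genes of mitochondrial DNA had no row in the table and were not analysed here. Mitochondrial ribosomal proteins rose for 30 of 78 and fell for 24, the largest fall being that of Mrps21 (-0.86).

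Cholesterol synthesis fell nearly throughout, with 20 of 24 lower and 1 higher (median -1.18). Hmgcs1, the synthase at the entry of the pathway, was at 15557, 16376, 16440.0 and 15680.5 with DMSO and 4751, 5009.7, 4845 and 5227 with sorafenib, 3.23-fold lower with no overlap (log2 fold change -1.69, SE 0.0392, edgeR FDR 4.75e-18). Mvd fell 3.24-fold, the sterol sensor gene Insig1 2.43-fold, and the sterol carrier gene Stard4 had a log2 fold change of -1.99 (-1.85 without replicate 2). The member that rose, Insig2 (0.73), is not driven by SREBP in the way Insig1 is. At 7 days 23 members were lower (median -1.91), against 27.9% of all genes tested. The response at 48 hours was above that at 7 days for 20, against 21.3% of all genes. It was hence less negative for those of them that fell at both times. Of sterol efflux and LXR target genes, 0 of 9 rose and 4 fell, namely Abcg5 (from 13.7 to 0.284 normalized counts), Apoe (-2.04), Abcg8 (-1.70, -1.37 without replicate 2) and Nr1h2 (-0.25). Apoe, which encodes the lipoprotein that carries cholesterol from cells, went from 2029 ± 82.5 with DMSO to 497 ± 36.5 with sorafenib.

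The sterol element TCACNCCA lay in 2 of 23 promoters of this list (8.70%, 17 of 24 genes in the promoter table) and in 4.36% of all promoters. The Hmgcs1 promoter (chr13:119690101-119690400, GRCm38.p6, plus strand) is shown with its match in capitals.
Hmgcs1: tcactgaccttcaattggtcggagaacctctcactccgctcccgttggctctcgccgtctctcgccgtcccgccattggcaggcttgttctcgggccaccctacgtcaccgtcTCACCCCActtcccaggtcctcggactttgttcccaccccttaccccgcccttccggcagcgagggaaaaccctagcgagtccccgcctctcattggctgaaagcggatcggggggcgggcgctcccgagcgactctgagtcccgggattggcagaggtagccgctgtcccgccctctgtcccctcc

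Lysosomal genes rose for 24 of 35 and fell for 7 (median 0.31), and V-ATPase subunits, which acidify the lysosome, rose for 14 of 20 and fell for 2, Atp6v0a4 (-0.72) and Atp6v0a1 (-0.11) (median 0.49). The cathepsin gene Ctsl was at 8137, 7896, 7863 and 7605 with DMSO and 22256, 23957, 23470.5 and 23102 with sorafenib, 2.95-fold higher with no overlap (log2 fold change 1.56, SE 0.0284, edgeR FDR 1.84e-19). The membrane protein gene Lamp1 rose 1.83-fold, and Ctsd from 6493 ± 91.6 with DMSO to 8318 ± 316 with sorafenib (0.36), while the cathepsin gene Ctsf fell (-2.13, -2.03 without replicate 2). Of the proton pump, Atp6v1h rose 2.33-fold, from 835 ± 42.0 with DMSO to 1947 ± 112 with sorafenib, and Atp6v0d1 1.34-fold. Lysosome genes often carry the element TCACGTGA, which TFEB and its relatives bind. It lay in 4 of 29 promoters of the lysosomal list (13.8%), 3 of 21 of the V-ATPase list (14.3%) and 320 of all 32851 (0.974%). The promoters of Ctsd (chr7:142387778-142388077, minus strand) and Atp6v0d1 (chr8:105566015-105566314, minus strand) are shown as 2 of those with a match, again in capitals and from GRCm38.p6.
Ctsd: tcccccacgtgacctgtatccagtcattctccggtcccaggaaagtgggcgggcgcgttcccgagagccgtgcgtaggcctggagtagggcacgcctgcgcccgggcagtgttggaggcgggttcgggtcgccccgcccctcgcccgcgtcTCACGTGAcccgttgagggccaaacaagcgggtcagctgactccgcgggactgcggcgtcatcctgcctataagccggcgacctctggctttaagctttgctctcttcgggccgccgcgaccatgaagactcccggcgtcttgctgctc
Atp6v0d1: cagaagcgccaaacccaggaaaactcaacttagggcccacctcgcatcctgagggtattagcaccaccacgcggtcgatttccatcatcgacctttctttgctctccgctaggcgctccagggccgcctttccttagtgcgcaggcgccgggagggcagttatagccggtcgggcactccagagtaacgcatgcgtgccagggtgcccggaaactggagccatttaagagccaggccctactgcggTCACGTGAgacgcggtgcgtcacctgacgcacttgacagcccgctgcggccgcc

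Autophagy genes were mixed, with 17 of 32 higher and 11 lower (median 0.13). The cargo receptor gene Sqstm1, also known as p62, was at 4649, 4511, 4667 and 4640.4 with DMSO and 13609, 15106, 14118 and 13383 with sorafenib, 3.04-fold higher (log2 fold change 1.61, SE 0.0354, edgeR FDR 2.22e-18). Optn, another receptor, rose 5.71-fold and Wipi1, of the forming autophagosome, 2.41-fold. Map1lc3b, which encodes the membrane marker LC3B, fell from 1823 ± 55.0 with DMSO to 1336 ± 89.4 with sorafenib (-0.45). The groups did not overlap for any of these 4 genes, as for 27 of the 32 on the list and 48.0% of all genes tested. Members were named for the size of their change or as preset anchors.

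Cytosolic ribosomal proteins fell by little but widely, with 69 of 84 lower and 2, Rpl28 (0.42) and Rpl4 (0.066), higher (median -0.25). No member was higher without sorafenib replicate 3 or replicate 4, or in a fit of the 48-hour libraries alone, and 1 was without any of DMSO replicates 1, 3 and 4 and sorafenib replicates 1 and 2. Rpl37a fell the most, from 4819, 3479.7, 4459 and 4568 to 1872, 1845, 1963 and 1781 (log2 fold change -1.21, SE 0.0718, edgeR FDR 1.14e-11). DMSO replicate 2 was the lowest of its group and above all sorafenib libraries. Rps28 had a log2 fold change of -0.90 (-0.78 without replicate 2) and Rpl3 of -0.57 (-0.45 without replicate 2). These genes have processed copies in the genome, so that single values are uncertain. Factors of ribosome biogenesis rose for 17 of 36 and fell for 7 (median 0.10, 22 and 7 without replicate 2), against 2 higher and 28 lower at 7 days. The difference between the times passed the test for 28 members, all with the higher response at 48 hours, against 21.3% of all genes tested. Utp20, of the small subunit processome, rose from 3043 ± 45.0 with DMSO to 5229 ± 194 with sorafenib (0.78) and was at 0.063 at 7 days. Ncl, which encodes nucleolin, rose at 48 hours (0.26) and fell at 7 days (-0.23).

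Proteasome subunits rose for 18 of 38 and fell for 6 (median 0.077), and 12 fell with scaling to total counts. Psmd8 rose 1.87-fold, Psmc6 1.57-fold and Psmd14 1.43-fold, all members of the regulatory cap. Of purine and pyrimidine synthesis genes, 7 of 26 rose (26.9%, as over all genes tested) and 10 fell (38.5%, against 27.7%). Ctps, which makes CTP, rose from 4549.6 ± 75.7 with DMSO to 8836 ± 400.1 with sorafenib (0.96), and Rrm2b, the p53-responsive subunit of ribonucleotide reductase, rose with a log2 fold change of 1.64 (1.77 without replicate 2).

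Proliferation genes were lower for replication and divided for mitosis. Of DNA replication genes, 29 of 37 fell and 1, Mcm2 (0.40), rose (median -0.38, 32 lower without replicate 2). Lig1, the ligase that joins Okazaki fragments, was at 4581, 4572, 4458 and 4537 with DMSO and 2592, 2605, 2533 and 2489 with sorafenib (log2 fold change -0.83, SE 0.0294, edgeR FDR 3.33e-15), with no overlap. The clamp gene Pcna fell from 4923 ± 76.4 with DMSO to 3553 ± 159 with sorafenib (-0.47) and E2f2 1.87-fold. Mitosis genes fell for 14 of 28 and rose for 6 (median -0.12). Mki67, which encodes the proliferation marker Ki-67, fell from 13446, 13821, 13663 and 14374 to 8617, 9218, 8891 and 9539 (log2 fold change -0.61, SE 0.0335, edgeR FDR 3.66e-12), and the checkpoint gene Bub1b had a log2 fold change of -0.64. Anln, which encodes the actin-binding anillin of the cleavage furrow, rose from 4671 ± 79.3 with DMSO to 9943 ± 650.4 with sorafenib (1.09). In the MYC, MAX and MXD network, 8 of 13 fell and 4 rose, namely Mycl (0.98), Mlx (0.26), Mycn (0.24) and Mga (0.13). Myc, which the cells overexpress, was at 13003, 12748, 13085 and 13970.3 with DMSO and 10188, 6390.3, 9564 and 9754 with sorafenib (log2 fold change -0.56, SE 0.0907, edgeR FDR 2.57e-05, and -0.42 without replicate 2 with an edgeR FDR of 1.48e-17). All sorafenib libraries were below the DMSO range, replicate 2 the most, and counts do not tell a transgene from the native gene. The antagonist Mxd3 fell 2.36-fold and Mycl rose 1.97-fold.

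Of G1 cyclins, their kinases and CDK inhibitors, 9 of 18 rose and 6 fell. The D-type cyclin genes Ccnd1 and Ccnd2 rose 2.66-fold and 2.76-fold. Ccnd1 was at 3781, 3787, 3575 and 3776 with DMSO and 9571, 10106, 10171 and 9829.6 with sorafenib (log2 fold change 1.41, SE 0.0315, edgeR FDR 2.63e-18), with no overlap. The imprinted inhibitor gene Cdkn1c fell 3.97-fold, from 6357 ± 153 with DMSO to 1607 ± 148 with sorafenib, and Cdkn1a, which encodes p21, rose from 37.8 ± 7.65 with DMSO to 135 ± 37.5 with sorafenib (1.86, 2.01 without replicate 2). Genes known as p53 targets rose for 13 of 19 and fell for 2, Sesn1 (-1.80) and Btg2 (-0.84) (median 0.53), in cells labelled as lacking p53. The membrane protein gene Perp was at 113, 112, 106 and 95.9 with DMSO and 916, 971, 977 and 881 with sorafenib, 8.76-fold higher (log2 fold change 3.13, SE 0.0688, edgeR FDR 2.14e-18). Plk2 rose 3.33-fold and Mdm2 from 1337 ± 61.9 with DMSO to 1929 ± 101 with sorafenib (0.53), whereas Sesn1 fell 3.48-fold.

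Of the BCL2 family, 10 of 15 rose and 4 fell, namely Bik (from 5.20 to 0.635 normalized counts), Bmf (-1.92), Bcl2l11 (-1.50) and Bad (-0.33, -0.21 without replicate 2). The cell death activator gene Hrk was at 10.8, 15.6, 10.2 and 14.7 with DMSO and 311, 340.2, 333 and 363 with sorafenib, 25.8-fold higher (log2 fold change 4.69, SE 0.115, edgeR FDR 1.09e-17). The cell death inhibitor gene Bcl2 also rose, from 264, 226, 236 and 212 to 1099, 1269, 1253 and 1179, 5.13-fold (log2 fold change 2.36, SE 0.0668, edgeR FDR 1e-16). The groups did not overlap for either gene. The activators Bmf and Bcl2l11, which encodes BIM, fell 3.79-fold and 2.83-fold, and Mcl1 rose (0.24).

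Interferon-stimulated genes were divided at 48 hours, with 10 of 33 higher (30.3%), 6 lower (18.2%) and 17 not called (median -0.02). Over all genes tested the shares were 26.9% and 27.7%. By over 2-fold, 6 members rose and 4 fell. When 10 counts in every library were required, 6 were called higher and 3 lower. At 7 days 27 were higher and 4 lower (median 2.05), against 28.9% and 27.9% of all genes tested. The response at 48 hours was below that at 7 days for 19 members, against 15.5% of all genes. Among the members higher at 48 hours, Isg20, an exonuclease gene, rose from 36.2, 27.8, 25.5 and 40.6 to 179.6, 157, 196 and 166 (log2 fold change 2.42, SE 0.128, edgeR FDR 2.03e-12), Bst2 2.20-fold and Ifit2 with a log2 fold change of 1.99 (2.15 without replicate 2). Of MHC class I genes with PD-L1, 6 of 15 rose and 4 fell, namely Psmb9 (from 1.11 to 0 normalized counts), Tap1 (from 6.14 to 1.35 normalized counts), Psmb10 (-0.37) and Tapbp (-0.33, -0.23 without replicate 2). Of the 15 genes, 10 lie in the lowered region, and 7 rose and 3 fell without replicate 2. H2-D1 had a log2 fold change of 1.73 (1.87 without replicate 2), and B2m rose from 2193 ± 52.9 with DMSO to 3148 ± 171 with sorafenib (0.52). H2-K1 was at 684 ± 40.7 with DMSO and 729 ± 153 with sorafenib, not called with all libraries (edgeR FDR 0.409) and higher without replicate 2 (0.24, edgeR FDR 0.000148).

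Secreted signals of the immune system rose for 9 of 24 and fell for 5, Cxcl5 (from 4.20 to 0.635 normalized counts), Il18 (-1.66), Il33 (-1.23, -1.08 without replicate 2), Cxcl14 (-0.77) and Ccl25 (-0.32). Csf1, the growth factor of macrophages, was at 1802, 1879, 2001 and 1952 with DMSO and 11873, 12673, 12047 and 11566 with sorafenib, 6.31-fold higher with no overlap (log2 fold change 2.66, SE 0.0429, edgeR FDR 3.96e-20). The chemokine gene Cx3cl1 rose 5.74-fold. Lif and Ccl2 rose at 48 hours (1.19 and 0.80) and fell at 7 days (-0.68 and -1.15, edgeR FDR 7.74e-10 and 4.52e-11 for the differences).

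Of liver lineage factors, 5 of 13 rose, namely Nr1h4 (2.33), Tbx3 (from 1.15 to 4.62 normalized counts), Foxa2 (1.77), Hhex (0.70, 0.85 without replicate 2) and Cebpa (0.38), and 3 fell, namely Gata4 (-0.99), Rxra (-0.64) and Gata6 (-0.61, -0.46 without replicate 2), with Foxa2 higher (211 ± 22.2 with DMSO and 722 ± 78.4 with sorafenib), the bile acid receptor gene Nr1h4 5.02-fold higher, and Gata4 1.99-fold lower. Of plasma protein genes, 1 of 10 rose, Hpx (0.86), and 3 fell, namely Rbp4 (-2.18, -2.12 without replicate 2), Trf (-1.76) and Hp (-0.95). None rose without DMSO replicate 3, DMSO replicate 4 or sorafenib replicate 4, and 2 did without sorafenib replicate 2. The transferrin gene Trf went from 1521 ± 49.6 with DMSO to 449 ± 32.1 with sorafenib. Of progenitor and bile duct markers, 5 of 14 rose, among them Cftr (3.48), Cd44 (3.17), Sox9 (1.64) and Spp1 (0.52), and 6 fell (median 0.037). Members with lower means were Dlk1 (32234 with DMSO and 10444 with sorafenib), Krt19 (2626 and 1537) and Epcam (29.3 and 6.17). The hyaluronan receptor gene Cd44 was at 499, 529, 529 and 534 with DMSO and 4515, 4964, 4910.1 and 4421 with sorafenib, 8.99-fold higher with no overlap (log2 fold change 3.17, SE 0.0514, edgeR FDR 4.12e-20). Sox9 rose 3.11-fold and the chloride channel gene Cftr 11.2-fold, while the keratin gene Krt7 fell (-1.93, -1.87 without replicate 2). Of the markers of other liver and blood cells, 3 of 10 rose, namely Stab2 (from 2.54 to 7.16 normalized counts), Col1a1 (0.95) and Dcn (0.43), and 2 fell, namely Cd79a (from 8.14 to 2.36 normalized counts) and Pdgfrb (-0.76, -0.64 without replicate 2). Col1a1 went from 41939 ± 1148 with DMSO to 81072 ± 2931 with sorafenib.

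Of glutathione, thioredoxin and pentose phosphate enzymes, 9 of 23 rose and 10 fell (median -0.015). The sulfiredoxin gene Srxn1 rose from 94.9 ± 9.32 with DMSO to 450.1 ± 31.2 with sorafenib (2.24) and Txnrd1 1.94-fold, whereas the glutathione transferase genes Mgst1 and Gsta4 fell 5.57-fold and 2.98-fold. Of metallothioneins and zinc transporters, 3 of 8 rose, namely Mt2 (1.73), Mt1 (0.81) and Slc39a14 (0.58), and 3 fell, namely Slc30a10 (from 29.5 to 0 normalized counts), Slc39a4 (-4.57, -4.35 without replicate 2) and Slc39a10 (-1.01). Mt2 rose from 31.3, 27.8, 28.6 and 21.6 to 84.2, 98.3, 84.7 and 96.5 (log2 fold change 1.73, SE 0.146, edgeR FDR 2.86e-09) and Mt1 1.75-fold. Slc39a4, a zinc importer, was at 333, 309.7, 310.4 and 293 with DMSO and 16.8, 4.54, 13.3 and 15.9 with sorafenib (log2 fold change -4.57, SE 0.164, edgeR FDR 3.79e-15, and -4.35 without replicate 2 with an edgeR FDR of 6.4e-29), far below the DMSO range in every library, and the importer gene Slc39a10 fell 2.01-fold. The pattern TGCNCNC, looser than the metal response core, lay in 7 of 8 promoters of this list (87.5%) and in 51.0% of all promoters. A match to a pattern this common does not mark a metal response element.

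Of drug efflux ABC transporters, 4 of 10 rose (5 without replicate 2), namely Abcb11 (from 0 to 1.59 normalized counts), Abcc4 (1.63, 1.76 without replicate 2), Abcc5 (0.46, 0.60 without replicate 2) and Abcg2 (0.29), and 2 fell (3 without replicate 2), namely Abcb1a (from 7.24 to 0.351 normalized counts) and Abcc10 (-0.80, -0.68 without replicate 2). Of these Abcg2, which exports many kinase inhibitors, was at 1280.0 ± 83.5 with DMSO and 1569 ± 87.4 with sorafenib and fell at 7 days (-0.62, edgeR FDR 2.88e-09 for the difference). Of the aryl hydrocarbon receptor pathway, 3 of 8 rose, namely Ugt1a6a (2.07), Cyp1b1 (1.35, 1.48 without replicate 2) and Ahr (0.21), and 4 fell, namely Aldh3a1 (from 6.30 to 1.75 normalized counts), Ahrr (-0.86), Tiparp (-0.53) and Arnt (-0.13). Cyp1b1 is a target of the receptor and Tiparp a repressor of it, and Ahr itself rose from 1383 ± 57.7 with DMSO to 1607 ± 98.0 with sorafenib at 48 hours and fell at 7 days (0.21 and -2.15, edgeR FDR 2.28e-15 for the difference). Of circadian clock genes, 8 of 19 rose and 8 fell. Arntl, which encodes the activator BMAL1, rose from 161 ± 12.4 with DMSO to 344 ± 42.2 with sorafenib (1.10) and the repressor gene Nfil3 3.22-fold, while Dbp and Per3 fell 3.37-fold and 3.29-fold. The labels do not give the time of day of sampling.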

How the data were processed

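The unit was the count of reads per gene. Per the labels, the deposited counts came from an Illumina Stranded mRNA Prep kit, reads aligned by the authors with STAR 2.7.1a to GRCm39 and counted with featureCounts 2.0.6, and DESeq2 1.40.2 was also named. The strand setting and annotation release are not given in the sources used here. Sorafenib and DMSO libraries at 48 hours were compared in a fit of all 16 libraries, 1 coefficient per group, with edgeR 4.0.16 (R 4.3.3), trimmed mean of M-values (TMM) scaling and the quasi-likelihood test, on genes with at least 10 counts in total. P-values were adjusted over all genes tested. Normalized counts are counts over library size times TMM factor, scaled to the geometric mean of the 16 libraries, and are not divided by gene length. The SE is that of the fit, from the log2 fold change and the F statistic. The scripts were tested on simulated data.

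The members and lists were chosen with earlier results of these data known. Named genes were the 10 largest rises and falls among called genes that averaged 100 or more normalized counts without overlap, 3 members per list with the largest change at such a level, and preset anchors. Positions come from GENCODE vM39 (GRCm39), promoters from RefSeq (GRCm38.p6). Alternatives were DESeq2 1.42.0, its size factors, total counts, filters of 1 count in any or 10 counts in every library, the 48-hour libraries only, a replicate block, an offset for the lowered region and each library left out. Every pair of replicates differed beyond sampling noise (chi-square per gene of 2.15 or more). A few results are not reported here.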

Additional observations from a re-analysis of the deposited data

Results flagged for a closer look

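Of 416 groups of 4 libraries checked for the 209 genes that the text names under the rule, 44 had 1 library far from the other 3 (Dixon ratio, the gap to the nearest library over the range of the group on the log2 scale, above the critical value for 4 samples), and chance alone sets such a mark in about 1 of 20 groups. In 23 of them the library was sorafenib replicate 2, low for a gene of the region where its counts are lowered. The ratios were Cdsn (0.8516), Egr1 (0.8783), Hbegf (0.8919), Atf4 (0.9284), Slc7a3 (0.8669), Slc38a2 (0.9568), Lars (0.8996), Lonp1 (0.8545), Hspa9 (0.8518), Rps28 (0.9501), Stard4 (0.9296), Vegfa (0.8872), Pdk3 (0.9460), Ndufv3 (0.8471), Rrm2b (0.8737), Myc (0.8645), H2-D1 (0.8985), H2-K1 (0.9052), Acta2 (0.8679), Pdgfrb (0.8294), Abcc4 (0.8687), Abcc5 (0.8375) and Cyp1b1 (0.8966). The same library was the high one for genes outside that region or without a position, Herpud1 (0.8323), Xbp1 (0.8453), Ctsd (0.8646), Atp6v0d1 (0.9508), Cs (0.8680), Pcna (0.9324), Col4a3 (0.8297) and Fn1 (0.8821). DMSO replicate 1 was the low one for Txnrd1 (0.8556) and Cd44 (0.8539). DMSO replicate 2 was the high one for Cs (0.9211) and Afp (1.0000). DMSO replicate 2 was the low one for Slc6a9 (0.9431) and Sqstm1 (0.8332). DMSO replicate 3 was the high one for Flt1 (0.8380), Ankrd37 (0.8449) and Mcl1 (0.8610). DMSO replicate 3 was the low one for Ccnd1 (0.9513). Sorafenib replicate 1 was the high one for Abcb1a (1.0000). Sorafenib replicate 1 was the low one for Uqcrh (0.9102). Sorafenib replicate 3 was the low one for Igfbp5 (0.9300). Counts of genes called with each library left out in turn are given with the alternatives. For single genes, values with a library left out are given for sorafenib replicate 2 only.

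For 17 genes sorafenib had opposite directions at 48 hours and 7 days, each called at both times, and the difference between the times passed edgeR's test. They rose at 48 hours and fell at 7 days with a difference of log2 fold changes of 0.92 for Abcg2, 2.37 for Ahr, 1.95 for Ccl2, 0.73 for Cs, 2.73 for Dcn, 1.87 for Lif, 4.18 for Ltbp2, 0.49 for Ncl, 1.40 for Nkd1 and 0.90 for Spry4. They fell at 48 hours and rose at 7 days with a difference of -3.84 for Bnip3, -0.49 for Dnajb9, -1.18 for Ldha, -2.69 for Pdk1, -2.51 for Rbp4, -1.70 for Slc2a1 and -0.48 for Xbp1.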

How the results depend on the processing

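The counts of 5505 genes higher and 5653 lower at 48 hours stayed within 1.5 times of these values under all alternatives that kept the threshold on FDR alone. Where a log2 fold change of 1 in size was required as well, 1806 were higher and 1884 lower. With each library left out in turn, 4998 to 5795 were higher, 5329 to 5819 lower, and 7141 to 8761 differed between the times, the last without sorafenib replicate 2. DESeq2 called 5322 and 5702, and scaling to total counts 4882 and 6481. The rule for named genes selected 276, not all of which the report names. Of these, 252 were called, and 246 kept their call under every alternative in which they were tested. With 10 counts required in every library, 234 of the 276 kept their result, 5 gained a call and 2 lost it. The rest, which are low in at least 1 library, were not tested under that filter. Rps6, Psmd1, Hk2, Pcx (0.32, 0.46 without replicate 2), Uqcrc2 and Plk1 lost it at least once, and none changed direction past the threshold. Single calls of genes named outside the rule were not followed. Without replicate 2 of sorafenib, 11 complex I genes were higher in place of 7. Lower proteasome subunits went from 6 to 10 with the offset for the lowered region or 10 counts in every library and to 12 with total counts, and lower chemokines from 5 to 3 with 10 counts in every library. The same filter gave 1 lower member in place of 3 in the metallothionein list, 2 in place of 4 in the MHC list, and 1 in place of 2 among other-cell markers and ABC transporters, and with 1 count in any library the count of lower members was 1 in place of 2 for V-ATPase subunits, cytosolic synthetases and mitochondrial chaperones. The medians of endoplasmic reticulum chaperones, mitochondrial chaperones, mitochondrial ribosomal proteins and metallothioneins changed sign among the alternatives. Depth limits genes at or below 3 counts a library.

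Deviations of same-numbered libraries from their group means correlated at -0.0687, -0.0108, -0.0172 and 0.00166 over 8392 genes. Those of libraries with other numbers correlated at -0.0537 to 0.0989. No pairing by number was seen, but such values cannot show whether same-numbered libraries were handled together. With the replicate number within each time as a block, 5270 genes were higher, 5374 lower and 6987 differed between the times.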
